A study of Homo sapiens with 6 samples.

Results

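Glutamate, GABA and acetylcholine act on nerve and muscle cells through receptors that are either ion channels or, for the metabotropic glutamate receptors, coupled to G proteins. Their subunit genes are textbook genes of the nervous system and of skeletal muscle, and most are not counted among the genes that make an endothelial cell. H3K27me3, a mark of Polycomb repression, and H3K4me3, a mark of active and poised promoters, can lie together on genes of other lineages, a state called bivalent. The receptor genes were taken from a RefSeq table of assembly GRCh38 patch 14 by symbol, as protein-coding genes on chromosomes 1 to 22, which gave 57 of 19126 genes. They comprised 17 genes of ionotropic glutamate receptors (GRIA, GRIK, GRIN and GRID), 8 of metabotropic glutamate receptors (GRM), 16 of GABA-A receptors (GABR) and 16 of nicotinic acetylcholine receptors (CHRN).

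The cells were GATA2+ endothelial cells derived from H1, a human embryonic stem cell line, in a Vc+ condition and in a Vc- condition, where the title of the series names vitamin C. GATA2 is a transcription factor of endothelium and blood. Of 6 samples, 4 had a list of islands, that is stretches of enriched windows: H3K27me3 in Vc+ cells, H3K27me3 in Vc- cells, H3K4me3 in Vc+ cells and H3K4me3 in Vc- cells. All 4 come from the same H1 line, and there was 1 library for each mark in each condition. Every difference given is therefore one between 2 libraries, without replicates and without a test. The series' design text speaks of GATA2/eGFP positive and negative cells, the sample labels of GATA2+ cells alone, and all 4 file names carry the condition opposite to the labels. Libraries are called by their labels here, and all directions would be the other way round if the file names, not the labels, held. H3K4me3 was called at 13 of 13 endothelial marker genes in both conditions, and H3K27me3 at 5 of 13 in Vc+ cells and 5 of 13 in Vc- cells. Of 11 neural marker genes H3K27me3 was called at 9 in Vc+ cells and 8 in Vc- cells, and of 6 skeletal muscle marker genes at 4 in each. H3K4me3 was called at 10 of 11 neural and 3 of 6 skeletal muscle marker genes in each condition. Over all protein-coding genes H3K4me3 was called at 78.8% in Vc+ cells and 78.7% in Vc- cells, and H3K27me3 at 24.2% and 22%.

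A receptor gene was called marked when an island overlapped its span, widened by 5 kb on either side, by at least 1 bp. RefSeq starts with sequence and strand were used for 40 of the 57 genes, namely 12 ionotropic and 7 metabotropic glutamate receptor genes, 11 GABA-A and 10 nicotinic genes. The sequences below are the 250 bases before a start from the RefSeq promoter table (GRCh38.p14), read 5′ to 3′ on the strand of the gene, with each CpG in capitals. They were picked after the calls were known to show how the starts of differently marked genes differ in CpG, the dinucleotide that marks CpG island promoters. GRIK3 (chr1:37034516-37034765, minus strand) and GRM7 (chr3:6860865-6861114, plus strand) carried both marks in both conditions, and GRM2 (chr3:51706818-51707067, plus strand) and GRM3 (chr7:86643659-86643908, plus strand) carried H3K27me3 in a single condition. CHRNA7 (chr15:32030265-32030514, plus strand) carried H3K4me3 without H3K27me3, and CHRNA9 (chr4:40335083-40335332, plus strand) and GABRA6 (chr5:161685471-161685720, plus strand) carried neither.
GRIK3: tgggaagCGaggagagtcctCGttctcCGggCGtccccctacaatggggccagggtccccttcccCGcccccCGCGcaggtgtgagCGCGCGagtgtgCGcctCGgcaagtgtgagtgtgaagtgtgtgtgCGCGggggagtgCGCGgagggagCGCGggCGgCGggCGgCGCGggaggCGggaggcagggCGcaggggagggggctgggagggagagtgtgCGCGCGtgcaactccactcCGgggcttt
GRM7: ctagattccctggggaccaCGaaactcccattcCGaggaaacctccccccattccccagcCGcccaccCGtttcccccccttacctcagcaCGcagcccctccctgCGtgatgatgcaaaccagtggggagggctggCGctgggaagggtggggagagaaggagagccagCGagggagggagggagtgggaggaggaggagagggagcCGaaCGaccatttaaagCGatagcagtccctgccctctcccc
GRM2: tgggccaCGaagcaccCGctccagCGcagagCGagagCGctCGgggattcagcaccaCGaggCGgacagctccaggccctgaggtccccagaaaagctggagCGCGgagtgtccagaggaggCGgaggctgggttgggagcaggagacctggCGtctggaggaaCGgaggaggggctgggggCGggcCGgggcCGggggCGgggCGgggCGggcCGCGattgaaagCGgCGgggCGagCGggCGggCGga
GRM3: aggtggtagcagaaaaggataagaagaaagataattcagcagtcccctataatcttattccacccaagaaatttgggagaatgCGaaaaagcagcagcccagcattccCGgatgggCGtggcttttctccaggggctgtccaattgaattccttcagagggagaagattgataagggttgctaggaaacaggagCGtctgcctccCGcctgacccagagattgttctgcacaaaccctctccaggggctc
CHRNA7: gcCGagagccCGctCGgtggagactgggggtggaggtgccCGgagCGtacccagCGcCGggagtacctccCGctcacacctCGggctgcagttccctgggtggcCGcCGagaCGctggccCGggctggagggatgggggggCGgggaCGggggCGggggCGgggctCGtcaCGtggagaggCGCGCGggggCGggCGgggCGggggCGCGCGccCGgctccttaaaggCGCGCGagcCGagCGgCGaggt
CHRNA9: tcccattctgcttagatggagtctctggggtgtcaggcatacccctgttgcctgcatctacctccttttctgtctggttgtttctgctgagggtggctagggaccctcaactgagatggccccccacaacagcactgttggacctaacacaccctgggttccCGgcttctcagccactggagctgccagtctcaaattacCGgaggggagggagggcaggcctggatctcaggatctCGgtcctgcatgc
GABRA6: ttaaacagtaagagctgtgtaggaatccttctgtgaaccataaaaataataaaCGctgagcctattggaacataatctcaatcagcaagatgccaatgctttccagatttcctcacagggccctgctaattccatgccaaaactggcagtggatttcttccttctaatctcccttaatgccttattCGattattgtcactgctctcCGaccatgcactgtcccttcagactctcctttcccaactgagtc
The number of CpG was 29 at GRIK3, 11 at GRM7, 27 at GRM2, 5 at GRM3, 35 at CHRNA7, 3 at CHRNA9 and 3 at GABRA6.

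H3K27me3 was called at 32 of the 57 receptor genes in Vc+ cells and at 33 in Vc- cells. These shares were 56.1% (exact 95% interval 42.4 to 69.3) in Vc+ cells and 57.9% (44.1 to 70.9) in Vc- cells. Over all 19126 protein-coding genes the corresponding shares were 24.2% in Vc+ cells and 22% in Vc- cells. The intervals cover counting error alone, and neighbouring receptor genes that share an island are not independent. H3K4me3 was called at 46 receptor genes (80.7%) in Vc+ cells and at 42 (73.7%) in Vc- cells, against backgrounds of 78.8% and 78.7%, so its share among receptor genes lay near that of all genes. In both conditions both marks were called at 28 of the 57 (49.1%), where the background was 18.5%. H3K27me3 was called in both libraries at 29 receptor genes (50.9%, background 19.9%) and in neither at 21 (36.8%, background 73.6%). H3K4me3 was called in both libraries at 42 (73.7%, background 77.8%) and in neither at 11 (19.3%, background 20.3%). Both marks were called at 31 receptor genes in Vc+ cells and 31 in Vc- cells (54.4% each), against backgrounds of 22.5% and 20.4%. H3K4me3 without H3K27me3 was called at 15 in Vc+ cells and 11 in Vc- cells, against backgrounds of 56.3% and 58.3%. H3K27me3 without H3K4me3 was found at GABRG1 in both conditions and at CHRNA4 in Vc- cells, 1 gene in Vc+ cells and 2 in Vc- cells, against backgrounds of 1.73% and 1.58%. Neither mark was called at 10 in Vc+ cells and 13 in Vc- cells, against backgrounds of 19.4% and 19.7%. Where both marks were called, an H3K4me3 island touched an H3K27me3 island at 31 of 31 genes in Vc+ cells and 30 of 31 in Vc- cells. With overlap counted inside the gene window alone, these were 31 and 29. Both marks at a gene may lie on the same chromosomes or in different cells, which island lists cannot tell apart.

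By class, H3K27me3 was called at 14 of 17 ionotropic glutamate receptor genes in Vc+ cells and 13 of 17 in Vc- cells, and at 7 of 8 metabotropic genes in each. GABA-A genes had 7 of 16 in Vc+ cells and 8 of 16 in Vc- cells, and nicotinic genes 4 of 16 (25%) in Vc+ cells and 5 of 16 (31.2%) in Vc- cells. The nicotinic shares thus lay near the 24.2% in Vc+ cells and 22% in Vc- cells of all genes, and those of the other classes above. H3K4me3 was called at 17 of 17 ionotropic genes in Vc+ cells and 16 of 17 in Vc- cells, and at 8 of 8 metabotropic genes in each. It was called at 11 GABA-A genes in Vc+ cells and 10 in Vc- cells, and at 10 nicotinic genes in Vc+ cells and 8 in Vc- cells. Over all genes H3K4me3 was called at 78.8% in Vc+ cells and 78.7% in Vc- cells. No mark in any library was found at 10 receptor genes (17.5%, background 18.4%), of which 4 were GABA-A genes (GABRA6, GABRP and GABRR2 among them) and 6 nicotinic genes (CHRNA1, CHRNA2, CHRNA6, CHRNA9, CHRNA10 and CHRNB3).

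**Figure D1:**
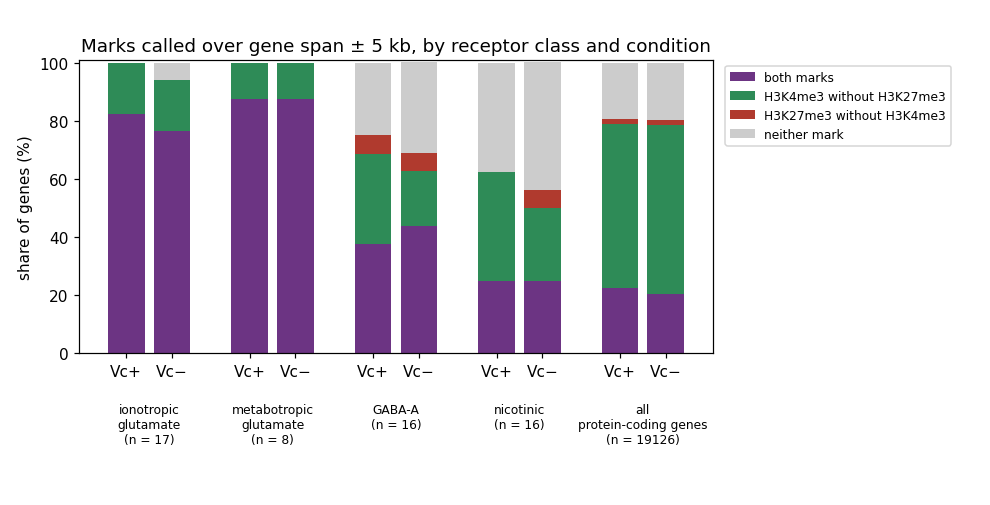
Stacked bars give the share of genes (%) of each receptor class, and of all protein-coding genes, with both marks, H3K4me3 without H3K27me3, H3K27me3 without H3K4me3 or neither, in Vc+ and Vc- cells. Both marks were called at 14 of 17 ionotropic genes in Vc+ cells and 13 of 17 in Vc- cells, and at 4 of 16 nicotinic genes in each.

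A longer gene has more room for an island, and the classes differed in length. The median span was 324 kb for ionotropic, 315 kb for metabotropic, 78.6 kb for GABA-A and 17.5 kb for nicotinic receptor genes, against 24.5 kb for all protein-coding genes. Among genes of 100 kb or more, H3K27me3 was called at 18 of 24 receptor genes in Vc+ cells and 20 of 24 in Vc- cells, where the background was 38.1% in Vc+ cells and 35.2% in Vc- cells. Among these long genes the ionotropic class had 9 of 12 in Vc+ cells and 10 of 12 in Vc- cells and the metabotropic class 5 of 6 and 6 of 6. The GABA-A class had 4 of 5 in each condition (80%, exact interval 28.4 to 99.5), and the 1 long nicotinic gene had none. Of these 4 GABA-A genes, GABRB1 was called only through an island that also touched GABRA4. With so few long GABA-A genes and so wide an interval, they could not be ranked against the glutamate receptor genes. Whether length accounts for the lower share of the whole GABA-A class was not tested. Below 100 kb H3K27me3 was called at 14 of 33 in Vc+ cells and 13 of 33 in Vc- cells, against 21.5% and 19.4%. H3K4me3 was called at 24 of 24 long receptor genes in Vc+ cells and 23 of 24 in Vc- cells, against 94.0% and 94.1% of all long genes. From 20 to 100 kb it was called at 11 of 16 and 10 of 16, against 85.6% and 85.5%. Below 20 kb it was called at 11 of 17 and 9 of 17, against 67.3% and 67.0%. Within 1 kb of a RefSeq start, a window of fixed width, H3K27me3 was called at 21 of 40 receptor genes (52.5%) in Vc+ cells and 19 of 40 (47.5%) in Vc- cells. A gene with several starts, such as GRM8 with 4, was called when any was hit. Genes with more starts thus had more windows, and the number of starts was not matched between classes. The background at starts was 15.7% in Vc+ cells and 14.3% in Vc- cells. Here 8 of 12 ionotropic and 6 of 7 metabotropic starts were called in Vc+ cells, and 7 of 12 and 6 of 7 in Vc- cells, while GABA-A starts had 5 of 11 in each condition and nicotinic starts 2 of 10 in Vc+ cells and 1 of 10 in Vc- cells. H3K4me3 at starts stood at 65% of receptor genes in Vc+ cells and 62.5% in Vc- cells, against 74.7% and 74.3% of all genes. Both marks were called at a start at 17 of 40 (42.5%) in Vc+ cells and 16 of 40 (40%) in Vc- cells, against 14.3% and 12.8% of all genes, and in both conditions at 15 of 40 (37.5%, background 11.7%). No mark in any library was found at 9 of 40 starts (22.5%, background 23.2%). H3K27me3 was called at a start in Vc+ cells alone at GRM2, GRIN3B and CHRND (3 of 40, background 2.6%) and in Vc- cells alone at GRM3 (1 of 40, background 1.21%). H3K4me3 was called at a start in Vc+ cells alone at CHRNB2 and GRIA1 (2 of 40, background 1.08%) and in Vc- cells alone at GRIK5 (1 of 40, background 0.709%).

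The CpG number at the start differed with the marks. The 9 receptor genes with no mark within 1 kb of a start had 1 to 4 CpG in the 250 bases before it, with a median of 3. The 18 with both marks in either condition had 5 to 33, with a median of 23, the 9 with H3K4me3 alone had 5 to 44, with a median of 10, and the 4 with H3K27me3 alone had 6 to 43, with a median of 14. Over all genes with a start the medians were 25 for both marks, 23 for H3K4me3 alone, 8 for H3K27me3 alone and 3 for neither, while the ranges overlapped widely, with 0 to 42 CpG at starts with neither mark and 1 to 58 at starts with both. At a like CpG number the share with H3K27me3 was higher among receptor genes than among all genes, except at starts with few CpG. Among genes with 15 or more CpG, it was called at 13 of 16 receptor genes in Vc+ cells and 11 of 16 in Vc- cells, where all such genes stood at 19.6% in Vc+ cells and 18.1% in Vc- cells. With 5 to 14 CpG it was called at 8 of 15 receptor genes in each condition, against 13.5% and 12.1% of all genes, and with 0 to 4 at 0 of 9, against 3.63% and 2.87%. The CpG-rich starts without H3K27me3 in either condition were those of GRIK4 with 44, CHRNA7 with 35 and CHRNB4 with 20. CpG-rich starts were less common among receptor genes, at 16 of 40 (40%), than among all genes, at 63.7%.

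**Figure D2:**
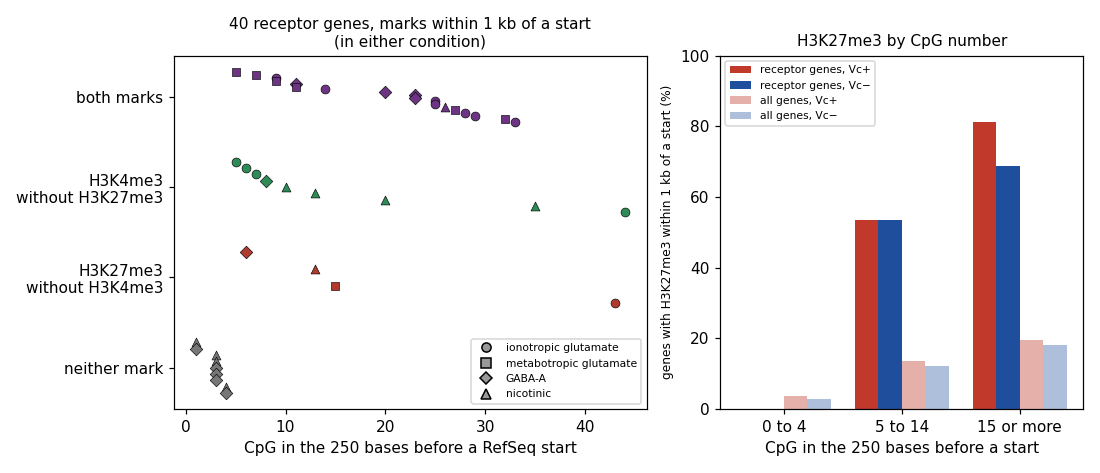
The left panel places each of 40 receptor genes by the number of CpG in the 250 bases before a RefSeq start (highest where a gene has several) and by the marks within 1 kb of a start in either condition. The right panel gives the share of genes (%) with H3K27me3 at a start by CpG number, for receptor genes and for all genes in Vc+ and Vc- cells. Genes with neither mark have at most 4 CpG, and receptor genes with 15 or more have H3K27me3 at 13 of 16 starts in Vc+ cells and 11 of 16 in Vc- cells.

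Among AMPA receptor genes, which encode the channels of fast excitatory transmission, GRIA2 and GRIA4 carried both marks in both conditions. At GRIA2, which encodes the subunit that limits calcium entry, H3K27me3 covered 7 kb in Vc+ cells and 5 kb in Vc- cells across the start. The H3K4me3 island of GRIA2 lay 1.38 kb beyond the nearest start in Vc+ cells and 1.58 kb in Vc- cells, inside the H3K27me3 island, and was 1.2 kb and 0.8 kb wide. GRIA4 had 5.2 kb of H3K27me3 in Vc+ cells and 5.4 kb in Vc- cells. GRIA1 had no H3K27me3, and its H3K4me3 call differed between the conditions, as given below with the other differing calls.

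The kainate receptor genes, whose channels act on either side of the synapse, held some of the longest stretches. GRIK2 had 20.5 kb of H3K27me3 in 5 islands in Vc+ cells and 16.4 kb in 3 islands in Vc- cells. In Vc- cells 1 island of 11 kb ran across both groups of GRIK2 starts, where Vc+ cells had islands of 2.2 kb and 6.6 kb with a gap between them. A further H3K27me3 stretch inside GRIK2 lay over 310 kb from any start in both libraries. At GRIK3 (chromosome 1, 36795527 to 37034515) an H3K27me3 island of 13.8 kb in Vc+ cells and 10 kb in Vc- cells enclosed an H3K4me3 island of 3.4 kb and 1.6 kb. A second GRIK3 island of 2.2 kb lay 99.1 kb from the start in Vc+ cells alone. GRIK1 had 8.6 kb of H3K27me3 in Vc+ cells and 5.4 kb in Vc- cells at its higher-coordinate end. GRIK4 stood apart, with 3 H3K4me3 islands in each condition and no H3K27me3. At GRIK5 the larger H3K27me3 island, 6.8 kb in Vc+ cells and 8.4 kb in Vc- cells, lay at the end away from the start. A second GRIK5 island of 2 kb, just over 1 kb from the start, was called in Vc- cells alone, together with an H3K4me3 island of 1.2 kb at the start.

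NMDA receptor genes encode the coincidence-detecting glutamate channels. GRIN1, the obligatory subunit (chromosome 9, 137139154 to 137168756), had the most H3K27me3 of all receptor genes in both conditions, 22 kb in Vc+ cells and 21.2 kb in Vc- cells. Of this, 16.2 kb in Vc+ cells and 15.6 kb in Vc- cells formed an island at the higher-coordinate end that overlapped LRRC26 and TMEM210 or lay within 1 kb of them. The island at the lower-coordinate end of GRIN1 was 5.8 kb and 5.6 kb wide, and an H3K4me3 island of 0.8 kb lay inside it in Vc+ cells alone. GRIN2B had 19.2 kb of H3K27me3 in Vc+ cells and 19 kb in Vc- cells, of which 7.4 kb and 7 kb lay at the starts and the rest inside the gene, at least 129 kb from them in Vc+ cells and 134 kb in Vc- cells. GRIN2A likewise had 8.8 kb in Vc+ cells and 6 kb in Vc- cells at its start and a second stretch 223 kb and 222 kb away, covered by 1 island of 7 kb in Vc+ cells and 2 of 2.2 kb in Vc- cells. GRIN2A also had 2 H3K4me3 islands of 1.2 kb inside the gene in Vc+ cells alone, with scores of 6.80 and 8.96. GRIN2C had 13.8 kb of H3K27me3 in Vc+ cells and 10.4 kb in Vc- cells, in 3 islands each. GRIN3A, an NMDA subunit of early postnatal brain, had 4 kb and 3.8 kb of H3K27me3 overlapping an H3K4me3 island of 3.8 kb in Vc+ cells and 3 kb in Vc- cells. The delta receptor gene GRID1 had an H3K27me3 island of 12.4 kb in Vc+ cells and 13.6 kb in Vc- cells at its higher-coordinate end.

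The H3K4me3 cover of ionotropic genes was largest at GRIN2D, with 11.8 kb in Vc+ cells and 9.2 kb in Vc- cells. It included islands at the starts of KDELR1 and GRWD1, the genes on either side, so part of this cover belongs to neighbours.

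Metabotropic glutamate receptors tune transmission through G proteins. GRM5, which acts through phospholipase C, carried both marks in each condition. At GRM5 H3K27me3 covered 6.8 kb in Vc+ cells and 6.4 kb in Vc- cells at the starts with no H3K4me3 there, and a second island inside the gene, 553 kb away, was 3.8 kb and 3.6 kb wide and held the H3K4me3 island of the gene. GRM7 (chromosome 3, 6861115 to 7741533), a presynaptic receptor, had 1 H3K27me3 island across its start, from 6857201 to 6865800 in Vc+ cells and from 6856801 to 6866200 in Vc- cells, with an H3K4me3 island of 1.4 kb and 1.6 kb wholly inside. GRM8 had 8.2 kb of H3K27me3 in Vc+ cells and 5.8 kb in Vc- cells, and the largest H3K4me3 cover of its class, 3.4 kb and 4 kb. GRM6, the receptor of ON bipolar cells of the retina, had 4 kb and 3 kb of H3K27me3, and GRM4 had 2.8 kb and 3.2 kb, with 2.6 kb of H3K4me3 in Vc+ cells and 2.4 kb in Vc- cells.

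GABA-A receptor genes, which encode chloride channels of fast inhibition, lie largely in clusters, and the marks differed within a cluster. On chromosome 4 the start of GABRA4 and the lower-coordinate end of GABRB1 share an H3K27me3 island of 11.4 kb in Vc+ cells and 6.4 kb in Vc- cells, from 46989001 to 47000400 and from 46991601 to 46998000. The 1 RefSeq start used for GABRB1 lay 31.2 kb from that island in Vc+ cells and 33.6 kb in Vc- cells. At that start H3K4me3 covered 2.2 kb and 1.8 kb with no H3K27me3. The GABRB1 span itself begins at 46993647, inside the shared island. GABRA2 in the same cluster had 5.4 kb of H3K27me3 in 1 island in Vc+ cells and 3.4 kb in 2 islands in Vc- cells, over an H3K4me3 island of 1.6 kb and 2 kb. GABRG1 had H3K27me3 alone, 3.2 kb in Vc+ cells and 2.2 kb in Vc- cells, with scores of 6.96 and 8.02. On chromosome 5, GABRB2 had 6.8 kb of H3K27me3 and 3 kb of H3K4me3 in both conditions, whereas GABRA6 had neither mark. On chromosome 15, GABRA5 had 4 kb of H3K27me3 in Vc+ cells and 6.2 kb in Vc- cells and GABRG3 7 kb and 8.22 kb, both with H3K4me3. The rho subunit genes GABRR1, GABRR2 and GABRR3, best known from the retina, and GABRP, a subunit found outside the brain, had no H3K27me3 and no mark within 1 kb of a start. GABRR1 and GABRR3 had H3K4me3 islands of 0.6 kb in Vc+ cells and of 1 kb and 0.6 kb in Vc- cells, 12.8 kb from a start at GABRR1, and 4.09 kb in Vc+ cells and 3.89 kb in Vc- cells from the start at GABRR3.

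Nicotinic genes encode the subunits of acetylcholine-gated channels of muscle, ganglia and brain. Of the 5 genes of the muscle receptor, CHRNA1 had no mark, and the H3K4me3 islands at CHRNE and CHRNG overlapped or lay within 1 kb of other genes (MINK1 and C17orf107 at CHRNE, TIGD1 and EIF4E2 at CHRNG). At CHRND an H3K27me3 island of 4.4 kb in Vc+ cells and 2.4 kb in Vc- cells lay 0.76 kb and 1.76 kb before the start and overlapped PRSS56 or lay within 1 kb of it. CHRNB1 had an H3K4me3 island of 1.2 kb at its start in both conditions and an H3K27me3 island of 2.4 kb in Vc+ cells and 2 kb in Vc- cells 1.54 kb into the gene. A second H3K27me3 island of 4.2 kb reached the edge of its window in Vc+ cells alone, at the starts of TMEM102 and FGF11. CHRNA3, a subunit of autonomic ganglia, was the nicotinic gene with both marks at its start in both conditions, with H3K27me3 of 4 kb in Vc+ cells and 4.8 kb in Vc- cells and H3K4me3 of 1.6 kb in each. Its neighbours CHRNA5 and CHRNB4 had H3K4me3 without H3K27me3 at their own ends or start. The call of H3K27me3 at CHRNB4 came from the island of CHRNA3. That island lay 18.2 kb in Vc+ cells and 16.6 kb in Vc- cells from the RefSeq start used for CHRNB4. CHRNA7, the subunit of homomeric brain and immune cell receptors, had H3K4me3 of 1.8 kb in Vc+ cells and 1.6 kb in Vc- cells at its starts. A partial copy of CHRNA7 elsewhere on chromosome 15 leaves reads in the copied part uncertain. CHRNA9 and CHRNA10, the subunits of cochlear hair cells, had no mark.

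**Figure D3:**
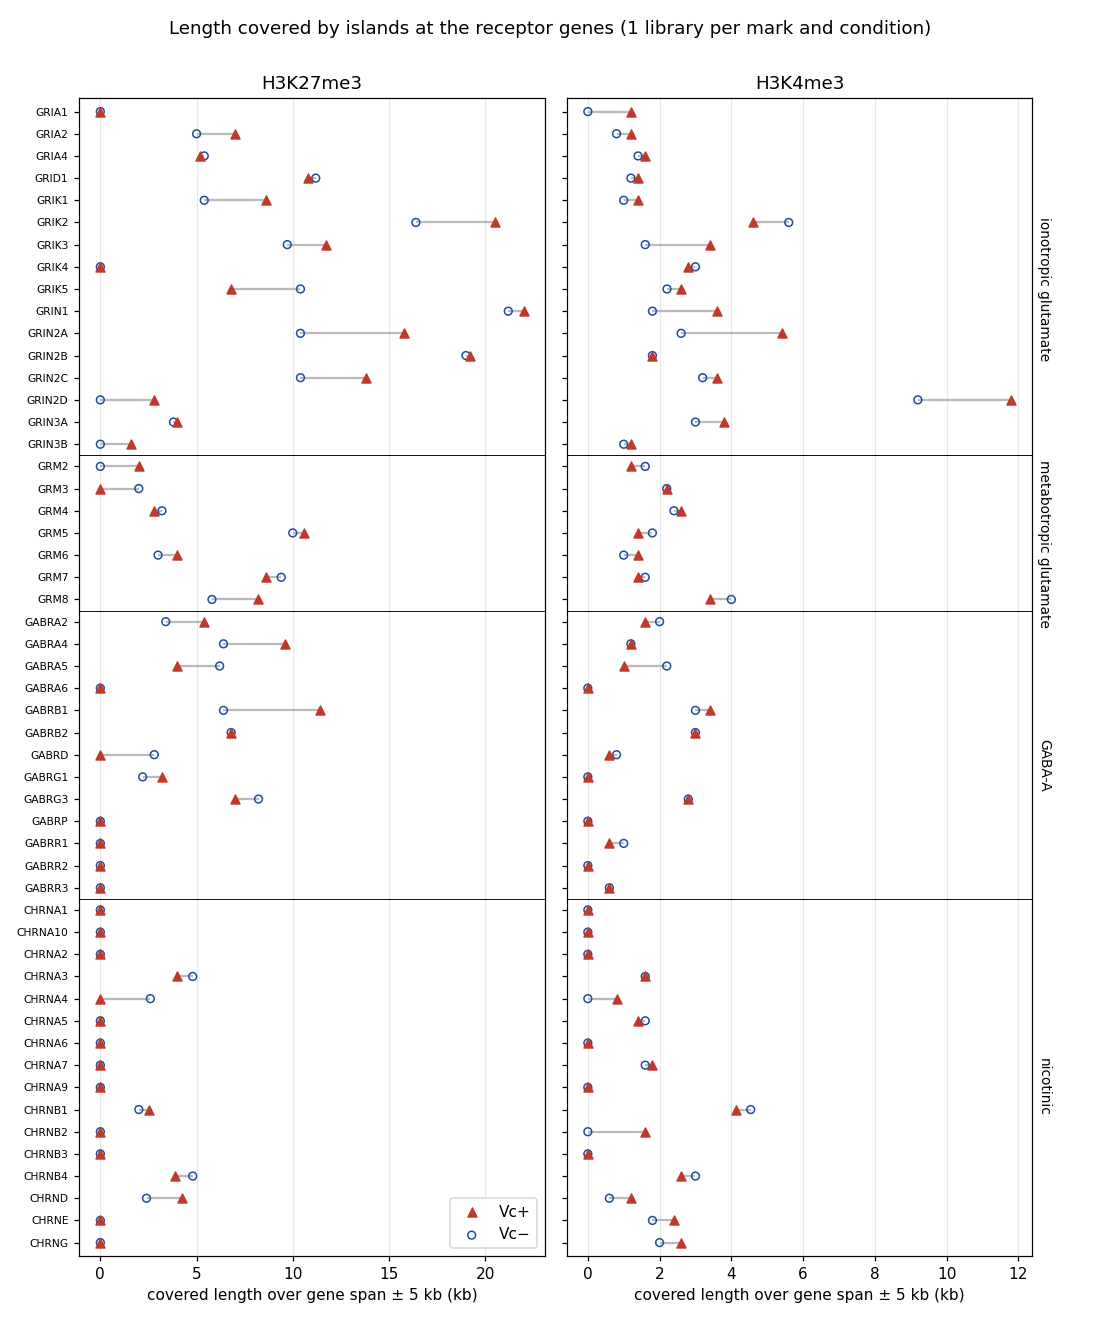
Each row is a receptor gene described here, grouped by class, and the horizontal axes give the length (kb) covered by H3K27me3 (left) and H3K4me3 (right) islands over the gene span and 5 kb on either side, with triangles for Vc+ and circles for Vc- cells, 1 library each. GRIN1 has the most H3K27me3 (22 kb in Vc+ cells, 21.2 kb in Vc- cells), most nicotinic genes have none, and GRIN2D has the most H3K4me3.

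The conditions were then compared gene by gene. H3K27me3 was called in Vc+ cells alone at 3 receptor genes (5.26%, exact 95% interval 1.1 to 14.6), against 4.36% of all genes, and in Vc- cells alone at 4 (7.02%, 1.95 to 17), against 2.13% of all genes. The background lay inside both intervals, and no direction was read from 3 against 4. The 3 genes of Vc+ cells were GRM2, GRIN3B and GRIN2D. At GRM2, a presynaptic receptor gene on chromosome 3, the island ran from 51707201 to 51709200, began 0.133 kb from the start shown above, had a score of 10.5 and overlapped the H3K4me3 island by 0.6 kb. The nearest H3K27me3 island of Vc- cells was 230 kb from the GRM2 window. At GRIN3B (chromosome 19, 999801 to 1001400) an island of 1.6 kb with a score of 23.3 lay across the start, with none in Vc- cells for 55.1 kb. At GRIN2D the island of 2.8 kb lay 47.9 kb from the start at the other end of the gene, beside the start of GRWD1.

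The genes called in Vc- cells alone included GRM3, GABRD and CHRNA4. GRM3, the closest relative of GRM2, had an island from 86644201 to 86646200 on chromosome 7, 0.292 kb from the start shown above, with a score of 9.27, and the nearest island of Vc+ cells was 350 kb from the window. GRM2 and GRM3 thus had H3K27me3 in opposite conditions, though with islands of score 10 or more the GRM3 call ended and the contrast with it. The scores of 10.5 at GRM2 and 9.27 at GRM3 come from different lists of unknown depth, so this cut cannot rank the calls. Both genes had H3K4me3 in both conditions, 1.2 kb in Vc+ cells and 1.6 kb in Vc- cells at GRM2, and 2.2 kb in each at GRM3. At GABRD, a subunit of extrasynaptic receptors, the island of 2.8 kb (chromosome 1, 2018201 to 2021000) had a score of 18.8, and the nearest in Vc+ cells lay 13.8 kb from the window. At CHRNA4, a subunit of the main nicotinic receptor of brain, an H3K27me3 island of 2.6 kb (chromosome 20, 63359801 to 63362400, score 21.8) was called in Vc- cells alone. At the same gene end an H3K4me3 island of 0.8 kb (63360601 to 63361400, score 13.1) was called in Vc+ cells alone, so at CHRNA4 the calls of the marks were opposite. The H3K4me3 call at CHRNA4 was lost when at least 1000 bp had to be covered and with lists of equal length, which leaves no opposite calls there.

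For H3K4me3 the calls in Vc+ cells alone were 4 (7.02%, 1.95 to 17, background 1.04%) and those in Vc- cells alone 0 (upper bound of the exact interval 6.27%, background 0.894%). The background lay below the interval for Vc+ cells and inside that for Vc- cells, but these counts changed with list length, as given below. The calls in Vc+ cells alone included CHRNA4, CHRNB2 and GRIA1. CHRNB2 encodes the usual partner of the CHRNA4 subunit, and its island of 1.6 kb (chromosome 1, 154567001 to 154568600, score 17.6) lay across the start, with an island of Vc- cells 3.18 kb outside the window. At GRIA1 the island of 1.2 kb (chromosome 5, 153490201 to 153491400) scored 9.93 and lay across a start, and the call was lost with scores of 10 or more and with lists of equal length. The H3K4me3 scores of these 3 genes are low, since 12.6% (GRIA1), 17.1% (CHRNA4) and 21.95% (CHRNB2) of the islands in the list of Vc+ cells scored lower. With both H3K4me3 lists brought to the same total length by dropping islands of low score from the longer, 2 genes were called in Vc+ cells alone and 3 in Vc- cells alone, so no direction was read from 4 against 0.

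**Figure D4:**
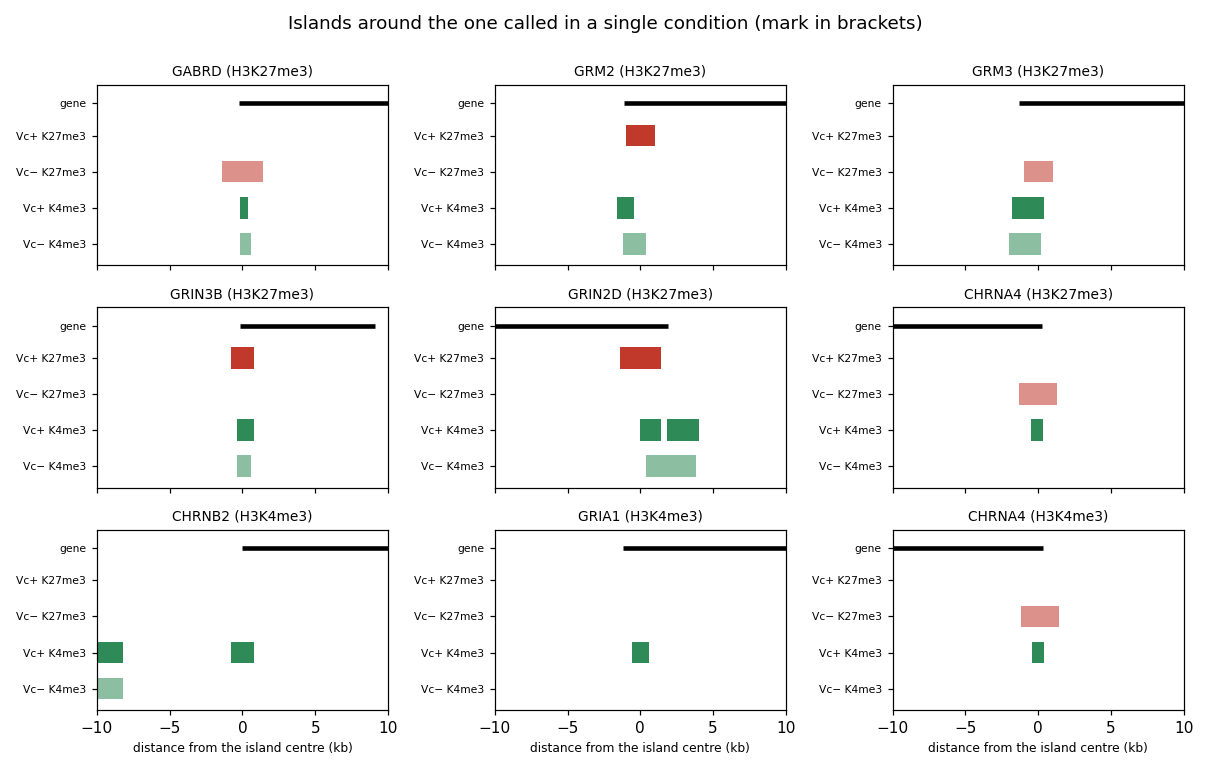
Each panel is a gene described here with a differing call and shows islands of all 4 libraries within 10 kb of the centre of the island called in a single condition, with the gene span as a black line and the distance from that centre (kb) on the horizontal axis. At CHRNA4 the H3K27me3 island of Vc- cells and the H3K4me3 island of Vc+ cells lie at the same place, while GRM2 has H3K27me3 in Vc+ cells and GRM3 in Vc- cells.

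Where a mark was called in both conditions, lengths were compared. H3K27me3 covered more in Vc+ cells at 19 of 29 receptor genes (65.5%), less at 9 and as much at 1, and the median ratio of Vc+ over Vc- was 1.21. Over all 3803 genes called in both, 64.1% had more in Vc+ cells and the median ratio was 1.15. The receptor genes thus lay near the background, and the Vc+ list as a whole covered 51.1 Mb on these chromosomes against 40.2 Mb for Vc-. Summed over receptor genes without counting shared bases again, H3K27me3 covered 243 kb in 45 islands (mean width 5.65 kb) in Vc+ cells and 217 kb in 46 islands (4.78 kb) in Vc- cells, a ratio of 1.12, where the ratio of the whole lists was 1.27. With both H3K27me3 lists cut to equal covered length, the ratio over receptor genes was 1.08. No difference between receptor genes and the whole lists was therefore read. The ratio of single genes ran between 0.645 at GABRA5 and 1.78 at GABRB1, and the sum was larger in Vc- cells for the nicotinic class alone, with 10.8 kb in Vc+ cells and 11.8 kb in Vc- cells. H3K4me3 covered more in Vc+ cells at 20 of 42 receptor genes, less at 15 and as much at 7, with a median ratio of 1, against 1.1 over all genes called in both. The share with more in Vc+ cells was 47.6% of receptor genes and 59.7% of all genes. The Vc+ H3K4me3 list as a whole covered 46.8 Mb against 42.0 Mb for Vc-, a ratio of 1.11. By class, 12 of 16 ionotropic genes (75%) had more H3K4me3 in Vc+ cells, with GRIN2A at 5.4 kb against 2.6 kb and GRIK3 at 3.4 kb against 1.6 kb in Vc- cells, while 3 of 8 metabotropic, 4 of 8 nicotinic and 1 of 10 GABA-A genes did, the last with 4 ties.

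H3K4me3 islands at receptor genes often lay inside H3K27me3. Their median width was 1.4 kb in Vc+ cells and 1.5 kb in Vc- cells, against 1.8 kb and 1.6 kb over the whole lists. Of 69 H3K4me3 islands in Vc+ cells 37 (53.6%) touched an H3K27me3 island and 30 of these 37 lay wholly inside it, and of 62 in Vc- cells 34 (54.8%) did and 25 lay inside. At all genes 22.6% of H3K4me3 islands touched H3K27me3 in Vc+ cells and 20.7% in Vc- cells. Of the touching islands 72.6% and 69.1% lay wholly inside at all genes, near the 81.1% and 73.5% at receptor genes. The median H3K4me3 cover of a called gene was 1.8 kb at receptor genes in each condition, against 3 kb in Vc+ cells and 2.6 kb in Vc- cells over all genes. The median H3K27me3 cover was 6.9 kb in Vc+ cells and 5.4 kb in Vc- cells, against 4.8 kb and 4.2 kb over all genes. Cover is summed over the gene window and is not island width. The median span was 71.9 kb for receptor genes and 24.5 kb for all genes, and cover was not matched for length.

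Other genes of these transmitter systems were read in the same way, against the 19.9% of all genes with H3K27me3 in both conditions, 4.36% in Vc+ cells alone and 2.13% in Vc- cells alone. Of 10 genes that supply or clear glutamate, 6 carried H3K27me3 in both conditions and none differed, among them SLC17A7, a vesicular glutamate transporter of neurons, with 18 kb in Vc+ cells and 16.6 kb in Vc- cells. SLC1A3, a glial glutamate transporter, and GLUL, which makes glutamine, had H3K4me3 alone. Of 7 genes of GABA synthesis and transport, H3K27me3 was called at 5 in both conditions, including GAD1 (6.8 kb in Vc+ cells, 2 kb in Vc- cells), GAD2 and SLC32A1, and at SLC6A13, a GABA transporter, in Vc+ cells alone. Of 5 genes of acetylcholine handling 4 had both marks in both conditions, against 18.5% of all genes. Genes of these lists were counted singly even where they may share an island. At CHAT, which makes acetylcholine, H3K27me3 covered 19.3 kb in Vc+ cells and 11 kb in Vc- cells. Receptor partners and scaffolds had H3K27me3 at 19 of 32 genes in both conditions, and CACNG5 and DOK7 were called in Vc+ cells alone. In that list H3K4me3 was called at CACNG2 in Vc+ cells alone and at MUSK in Vc- cells alone. Of 12 other receptors 8 had H3K27me3 in both conditions, including all 5 muscarinic genes (CHRM1 to CHRM5). GABBR1, a subunit of the metabotropic GABA receptor, had H3K4me3 without H3K27me3.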

How the data were processed

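H3K27me3 and H3K4me3 were measured by chromatin immunoprecipitation and sequencing. The submitters' processing notes name SICER, Bowtie2 and deepTools, and the builds hg38 and GRCh38; settings are not given in the sources used here. Each library had 1 deposited island list, and the 2 inputs were not analysed here. The score deposited with each island was read as a −log10 value of its false discovery rate. The reason is that it runs from 2 to 309 and then jumps to 1000. The score depends on depth and width. Shares of islands with a lower score were taken within a list. The settings with scores of at least 5 or at least 10 put the same cut on every list, although depth may differ between lists. Read depth is unknown. Intervals are exact Clopper-Pearson 95% intervals over genes and hold neither depth nor the spread between libraries. Widths are multiples of 200 bp. Coordinates count from 1.

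Genes, starts and promoter sequences came from RefSeq GRCh38.p14, used here as spans without exons. Calls need 1 bp of overlap with the span and 5 kb, or with 1 kb on either side of a start. The members, lists and rules were chosen with earlier results of these data known. Named in full were members whose call differed, the 3 of each class with most H3K27me3 and the 2 with most H3K4me3. Some members are counted but not reported by name here. Groups were the labelled conditions. Alternatives covered windows, scores, overlap and list length. Calls matched bedtools 2.31.1 at all 19126 genes in each library and were tested on simulated data. Python 3.11.15, numpy 2.4.6, pandas 2.3.3, scipy 1.17.1 and matplotlib 3.10.9 were used.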

Additional observations from a re-analysis of the deposited data

How the results depend on the processing

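Of 92 counts and ratios recomputed under other settings, 84 stayed within 1.5 times the reported count or within 10% of the reported ratio, on the same side of 1. Receptor genes with both marks in both conditions numbered 20 to 28 over these settings. All were among the 28 reported, but only the setting with 10 kb flanks could have added a gene. The others narrow windows, drop islands or ask for more overlap, so for them this was fixed in advance. H3K27me3 in Vc- cells alone fell to 2 genes with islands of score 10 or more, which ended the call at GRM3 among others. H3K4me3 in Vc+ cells alone came to 2 genes with lists of equal covered length, which ended the calls at GRIA1 and CHRNA4, and to 7 when islands touching another gene were left out, an alternative chosen after seeing the data. H3K4me3 in Vc- cells alone came to 3 genes with equal lists, and to 1 each at transcript starts or gene ends, with scores of 10 or more, and with at least 1000 bp covered, where the call at CHRNA4 in Vc+ cells also ended. The ratio of H3K4me3 cover over receptor genes, Vc+ over Vc-, was 1.16 with the full lists and 1.03 with equal lists. The H3K27me3 differences at GRM2, GRIN3B, GABRD and CHRNA4 held under all 8 settings. The score cuts were the same for lists of unknown depth. Keeping GRM2 (score 10.5) and losing GRM3 (9.27) at the cut of 10 therefore does not rank these calls. A reversal could not occur, since wider windows keep every call and the other settings add none. No paired analysis was possible because each mark and condition had 1 library. Depth is unknown, so how much of a missing call reflects fewer reads was not tested.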
